A study of Mus musculus with 6 samples.

Results

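Primary granules, also called azurophil granules, are the first storage granules that a developing neutrophil makes. The genes described here are 8 primary granule genes, chosen by name as Mpo, Elane, Prtn3, Ctsg, Ms4a3, Srgn, Prss57 and Nkg7, of 55487 genes in one table of normalized counts, and all 8 were expressed above the level needed for testing. The table came from RNA-seq of 6 bone marrow samples, 3 labelled PBS and 3 labelled pIpC, and the comparison asks what changes in MLL-AF9 leukemia cells when Brd9, a bromodomain subunit of a chromatin remodelling complex, is deleted in established disease. By the labels, both groups had donor cells of one genotype on a C57BL/6 background, CD45.2(+) Mx1-Cre Brd9fl/fl MA9, where MA9 is the MLL-AF9 fusion oncogene brought in as a cDNA by a retrovirus that also carries GFP. Recipients, CD45.1(+) CD45.2(-), were irradiated with 2 fractions of 450 cGy and given 1000 leukemic bone marrow cells, and from the following day they had 3 injections of either PBS or 20 mg/kg pIpC, on alternate days. Samples were taken 10 days after injection. pIpC (polyinosinic-polycytidylic acid) is a double-stranded RNA mimic that raises interferon, and interferon switches on Cre from the Mx1 promoter in many cell types. The PBS group therefore lacks the interferon stimulus as well as the deletion, and these cannot be told apart. The labels describe GFP+ bone marrow cells and unstranded libraries, whereas the study's methods describe c-Kit+ cells and stranded libraries. For mice given 1000 leukemic cells the methods also state a sublethal dose of 450 cGy, without the 2 fractions given above.

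Primary granule genes are transcribed mainly in promyelocytes, the stage before specific (secondary) and gelatinase (tertiary) granules are made. Myeloperoxidase, encoded by Mpo, is a heme enzyme that turns hydrogen peroxide and chloride into hypochlorous acid. Elane (neutrophil elastase), Prtn3 (proteinase 3), Ctsg (cathepsin G) and Prss57 encode serine proteases that are made as inactive precursors and activated by the dipeptidyl peptidase cathepsin C, and Srgn encodes serglycin, the proteoglycan whose sulfated chains pack the basic proteases into the granule. Ms4a3 encodes a membrane protein of granulocyte and monocyte progenitors, and Nkg7 a membrane protein best known from the cytotoxic granules of natural killer and T cells.

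Brd9, the targeted gene, was not lower in the libraries labelled pIpC. PBS replicates 1, 2 and 3 had 1927, 1946 and 1632 normalized counts of Brd9, and those labelled pIpC had 2036, 2263 and 2011. The log2 difference was 0.20 (SE 0.13, limma with Benjamini-Hochberg adjustment, adjusted p = 0.259) and an exact two-sided permutation p of 0.1, the smallest that 3 against 3 libraries can give. The deleted allele keeps most exons, so the whole-gene count may be a weak check of the deletion. The paper reports that the excision lowered Brd9 mRNA in marrow cells of its knockout mice. It also reports inefficient Brd9 depletion in GFP+ marrow cells of those pIpC-treated leukemic mice that died early. The extent of deletion in these samples was not tested, and the groups are named below by their labels only. Reads counted on genes numbered 19277439 to 22378154 per PBS library and 22348517 to 23586722 per library labelled pIpC. Xist, looked at after its values were seen, had 15.8 to 72.9 normalized counts in PBS libraries and 18429 to 26173 in the libraries labelled pIpC. Xist is the RNA that silences an X chromosome and is made in female cells, so the 2 groups differed in their content of RNA from female cells. Whether it came from donor or recipient cells was not tested, and this difference cannot be told apart from the label in any result below. Markers of other blood cells also moved with the label. The summed normalized count of 9 erythroid markers was 20.8 to 37.3 in PBS libraries and 3808 to 5733 in those labelled pIpC, that of 8 B cell markers 136 to 304 and 1284 to 2321, that of 8 platelet and megakaryocyte markers 401 to 562 and 1678 to 2492, that of 10 monocyte and macrophage markers 38695 to 38959 and 44701 to 48019, and that of 8 eosinophil markers 10066 to 20660 and 4868 to 5495. In that order, 9 of 9, 8 of 8, 7 of 7, 7 of 10 and 3 of 7 tested markers were higher past the threshold. There were 2 monocyte and macrophage markers and 2 eosinophil markers that were lower. Over all genes tested, 25.0% were higher and 20.4% lower. Slc4a1 among the erythroid, Ms4a1 among the B cell, and Ppbp and Gp1bb among the platelet markers were at 0 in all PBS libraries. Of 6 genes tied to MLL-AF9 leukemia, 4 were lower and 1 higher, and their sum was 19837 to 23395 in PBS libraries against 7661 to 8146. Of 6 general myeloid leukocyte genes, 4 were higher and none lower, with sums of 31103 to 35732 and 58966 to 64630. The part of these differences in the granule gene results was not tested, and in bulk samples a change in the share of a cell type and a change in RNA per cell cannot be told apart. Nothing in the labels states that the samples came from separate recipients, so p-values measure only the spread between these samples.

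PBS replicate 3 stood apart from the other PBS libraries, in the granule genes and in other genes. Relative to the mean of PBS replicates 1 and 2, it held 2.24 times as much Prtn3, 1.95 times Elane, 1.83 times Nkg7, 1.69 times Srgn, 1.50 times Prss57, 1.32 times Ms4a3 and 1.25 times Ctsg. Mpo was the exception at 0.904 times, and the median over all 15020 tested genes was 0.996. The coefficient of variation across PBS libraries was accordingly 42.0% for Elane and 50.8% for Prtn3 but 6.14% for Mpo, whereas in the libraries labelled pIpC it was between 3.86% and 11.3% for all 8 genes. PBS replicate 3 also had the fewest genes above 0, at 19838. PBS replicates 1 and 2 had 21456 and 21165, and the libraries labelled pIpC had 21887 to 22339. Why PBS replicate 3 differed was not tested. Results that depend on this library are given below with and without it.

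Of the windows just upstream of the transcription start, 4 are printed because the values below turn on these genes, Mpo and Nkg7 with the largest rises and the neighbours Elane and Prtn3 that did not pass the test. RefSeq start sites on GRCm38.p6 were found for 7 of the 8 genes (all but Prss57), in 8 windows since Srgn has a pair of starts. Each printed run covers the 250 bases before the RefSeq start, 5′ to 3′ on the gene's strand, in lower case, with capitals marking GAGGAA (a PU.1 motif), AACGG (a MYB motif) or TGTGGT (a RUNX motif), searched on both strands.
Elane (chr10:79886062-79886311, + strand): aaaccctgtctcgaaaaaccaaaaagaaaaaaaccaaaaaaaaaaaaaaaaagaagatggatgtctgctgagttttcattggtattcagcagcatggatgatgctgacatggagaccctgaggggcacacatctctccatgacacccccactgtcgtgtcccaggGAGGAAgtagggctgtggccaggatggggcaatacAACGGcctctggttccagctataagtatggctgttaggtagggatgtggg
Prtn3 (chr10:79879417-79879666, + strand): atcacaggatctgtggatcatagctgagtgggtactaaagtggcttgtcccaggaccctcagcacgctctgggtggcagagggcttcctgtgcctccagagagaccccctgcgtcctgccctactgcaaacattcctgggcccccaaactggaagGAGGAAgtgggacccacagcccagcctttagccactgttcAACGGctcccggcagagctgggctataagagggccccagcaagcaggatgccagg
Mpo (chr11:87793534-87793783, + strand): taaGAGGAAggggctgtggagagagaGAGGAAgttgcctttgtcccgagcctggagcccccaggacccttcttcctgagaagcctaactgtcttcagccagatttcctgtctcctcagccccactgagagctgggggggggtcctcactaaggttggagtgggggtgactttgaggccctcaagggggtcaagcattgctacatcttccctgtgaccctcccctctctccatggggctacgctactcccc
Nkg7 (chr7:43436888-43437137, + strand): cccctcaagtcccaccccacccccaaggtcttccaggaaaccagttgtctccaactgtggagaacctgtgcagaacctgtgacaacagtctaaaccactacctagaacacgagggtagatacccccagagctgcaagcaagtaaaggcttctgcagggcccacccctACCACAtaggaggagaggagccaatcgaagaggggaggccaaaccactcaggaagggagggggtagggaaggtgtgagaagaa
Elane and Prtn3 held the same pair of motifs in the same order and on the same strand. GAGGAA lay at -85 to -80 and AACGG at -50 to -46 in Elane, and at -95 to -90 and -55 to -51 in Prtn3, counted back from the base before the RefSeq start as -1. The Mpo window held GAGGAA at -247 to -242 and again at -224 to -219, with no AACGG, and the Nkg7 window held the complement of TGTGGT at -83 to -78. Ctsg held GAGGAA at -216 to -211, the complement of TGTGGT at -79 to -74 and the complement of the TATA box letters TATAAA at -237 to -232. Srgn held TATAAA at -98 to -93 of one start and the complement of TGTGGT at -202 to -197 of the other, and Ms4a3 held none of the searched letters. The C/EBP letters TTNNGCAA were in none of the 8 windows. No matches overlapped. Over 32536 windows of the same length, 23.4% held GAGGAA, 14.4% AACGG, 14.0% TGTGGT, 12.3% TATAAA and 9.57% TTNNGCAA, so that each single match is common, and a match is a description of letters and not of binding. The RefSeq starts of Elane and Nkg7 lie 65 bases inside the GENCODE gene start, that of Mpo 203 bases and that of Prtn3 5191 bases inside it.

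Of the 8 primary granule genes, 5 (Mpo, Nkg7, Ms4a3, Prss57 and Ctsg) were higher and 1 (Srgn) was lower in the libraries labelled pIpC at a Benjamini-Hochberg adjusted p under 0.1 in limma, and Elane and Prtn3 did not pass. Of all genes tested, 25.0% were higher, 20.4% were lower and 45.3% were called in either direction, against 75% of these 8. The values of 6 of the 8 genes did not overlap between groups, and the same held for 56.8% of all genes tested. The median log2 fold change was 1.01 over the 8 genes and 0.01 over all genes tested, of which 7627 lay above 0 and 7393 below. Without PBS replicate 3, 7 of the 8 were called, 6 higher and 1 lower, against 65.1% of all genes tested.

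**Figure D1:**
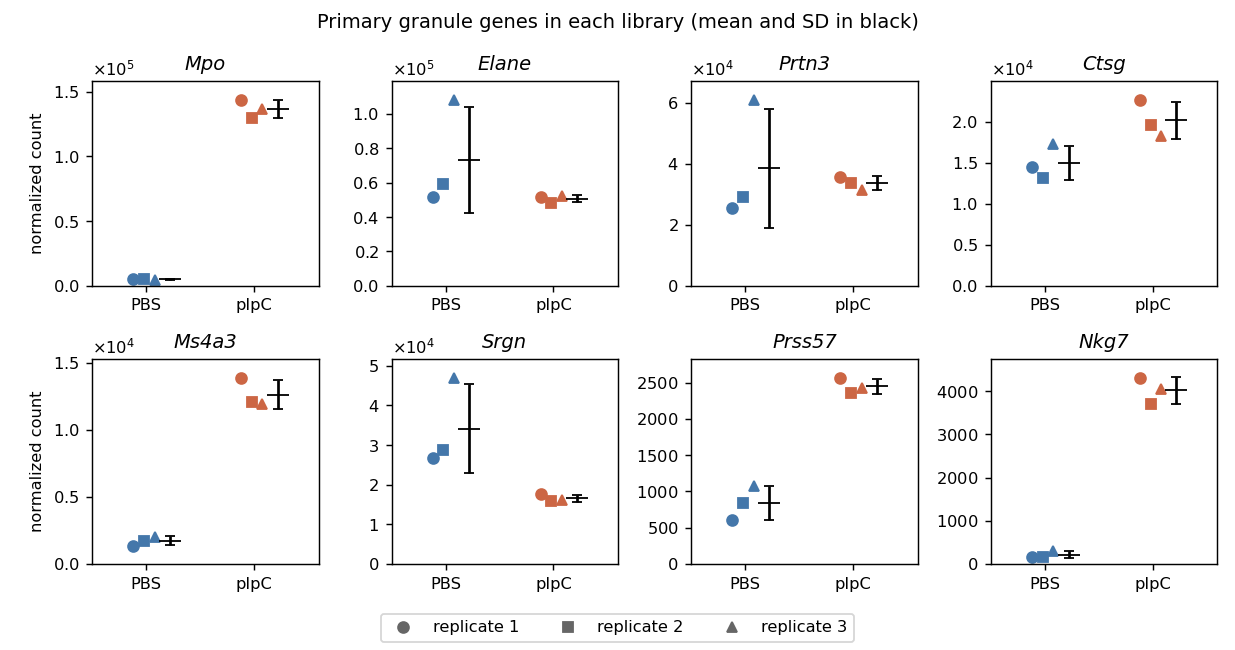
Normalized count (vertical axis, from 0, own scale per gene) of each primary granule gene in the 3 PBS libraries (blue) and the 3 libraries labelled pIpC (orange), with marker shape giving the replicate and black bars the mean and SD. Mpo, Ms4a3, Prss57 and Nkg7 rose beyond the spread, and PBS replicate 3 stands above the other PBS libraries in Elane, Prtn3 and Srgn.

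Mpo (ENSMUSG00000009350, chromosome 11 of GRCm38 from 87793581 to 87804413, + strand) showed the largest change of the 8. PBS replicates 1, 2 and 3 had 5163, 5397 and 4776 normalized counts, and replicates 1, 2 and 3 labelled pIpC had 143966, 129651 and 136560. Every library labelled pIpC was far above every PBS library, and the means were 5112 ± 314 and 136726 ± 7159 (SD, n = 3 each). The log2 fold change was 4.74 (SE 0.15, 95% interval 4.39 to 5.09, adjusted p = 1.37e-05, limma), or 26.8-fold. All fold changes given here are on the log2(normalized count + 1) scale. By count, Mpo ranked 644th, 613th and 796th among all genes in the PBS libraries and 8th, 9th and 8th in those labelled pIpC. Mpo shares 5361 bases with the antisense gene Gm11505, which had a mean of 0.577 normalized counts in PBS libraries and 23.7 in those labelled pIpC. If the libraries were unstranded, as the labels say, reads of overlapping genes on opposite strands cannot be told apart.

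Elane (ENSMUSG00000020125, chromosome 10 from 79886247 to 79888215, + strand) had the highest level per length of the 8 in every library but did not pass the test. There were 51669, 59448 and 108326 normalized counts in PBS replicates 1, 2 and 3, against 51557, 48408 and 51984 in those labelled pIpC. The groups overlapped, because PBS replicate 1 lay within the range of the libraries labelled pIpC. The means were 73148 ± 30713 and 50649 ± 1953 (SD, n = 3 each), and the log2 difference was -0.45 (SE 0.30, 95% interval -1.17 to 0.27, limma adjusted p = 0.281). Without PBS replicate 3 the difference was -0.13 (limma adjusted p = 0.250), whereas under quantile normalization it was -0.78 and passed the threshold (limma adjusted p = 0.00134).

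Prtn3 (ENSMUSG00000057729, chromosome 10 from 79874476 to 79883174, + strand), whose body ends 3.073 kb before that of Elane starts, also did not pass. The normalized counts were 25598, 28992 and 61065 in PBS libraries and 35798, 33774 and 31452 in those labelled pIpC. PBS replicates 1 and 2 lay below, and PBS replicate 3 above, all libraries labelled pIpC. The means were 38552 ± 19571 and 33675 ± 2175 (SD, n = 3 each), and the log2 difference was -0.08 (SE 0.34, 95% interval -0.89 to 0.72, limma adjusted p = 0.861). The direction depended on PBS replicate 3, since without it the log2 difference was 0.30 and past the threshold (limma adjusted p = 0.0170), and it was 0.14 under quantile normalization (limma adjusted p = 0.353). Plppr3, on the other strand, shares 159 bases with Prtn3 and had means of 3360 and 2281 normalized counts.

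Ctsg (ENSMUSG00000040314, chromosome 14 from 56099881 to 56102574, - strand) was moderately higher. The normalized counts were 14443, 13112 and 17255 in PBS libraries and 22665, 19527 and 18259 in those labelled pIpC. The groups did not overlap, although PBS replicate 3 came close to the lowest library labelled pIpC. The means were 14936 ± 2115 and 20150 ± 2268 (SD, n = 3 each), a 1.35-fold difference with a log2 value of 0.44 (SE 0.17, 95% interval 0.03 to 0.84, limma adjusted p = 0.0875). This call was near the threshold and was kept in only 7 of 17 alternative analyses. It was lost when any single library other than PBS replicate 3 was left out, and without that library the log2 difference was 0.54 (limma adjusted p = 0.00143).

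Prss57 (ENSMUSG00000020323, chromosome 10 from 79781474 to 79790961, - strand), the least abundant of the serine proteases, did rise. It had 602, 838 and 1080 normalized counts in PBS libraries and 2565, 2362 and 2421 in those labelled pIpC. The groups were well apart, with means of 840 ± 239 and 2450 ± 104 (SD, n = 3 each) and a 2.99-fold difference (log2 1.58, SE 0.22, 95% interval 1.07 to 2.09, limma adjusted p = 0.00153). Fstl3, on the other strand, shares 1157 bases with Prss57 but had only 43.3 and 57.3 normalized counts on average.

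Srgn (ENSMUSG00000020077, chromosome 10 from 62493833 to 62527451, - strand) was the only one of the 8 that fell past the threshold. The normalized counts were 26753, 28654 and 46944 in PBS libraries and 17657, 15971 and 16066 in those labelled pIpC. All PBS libraries were above all libraries labelled pIpC, and PBS replicate 3 was the highest. The means were 34117 ± 11149 and 16564 ± 947 (SD, n = 3 each), and the log2 fold change was -0.997 (SE 0.24, 95% interval -1.57 to -0.43, limma adjusted p = 0.0176). Without PBS replicate 3 it was -0.74 and still past the threshold.

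The remaining pair are membrane proteins, and both rose. Ms4a3 (ENSMUSG00000024681, chromosome 19 from 11629496 to 11640851, - strand) had 1371, 1727 and 2039 normalized counts in PBS libraries and 13864, 12064 and 11938 in those labelled pIpC. Its means were 1712 ± 335 and 12622 ± 1078 (SD, n = 3 each), a 7.45-fold rise (log2 2.90, SE 0.17, 95% interval 2.48 to 3.31, limma adjusted p = 5.31e-05). The Ms4a3 groups were far apart. Nkg7 (ENSMUSG00000004612, chromosome 7 from 43437073 to 43438249, + strand) had 162, 167 and 301 normalized counts in PBS libraries and 4312, 3702 and 4056 in those labelled pIpC. Its means were 210 ± 78.9 and 4023 ± 306 (SD, n = 3 each), a 19.9-fold rise (log2 4.31, SE 0.25, 95% interval 3.71 to 4.91, limma adjusted p = 5.13e-05), so that the least counted gene of the 8 in PBS libraries rose almost as steeply as Mpo.

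**Figure D2:**
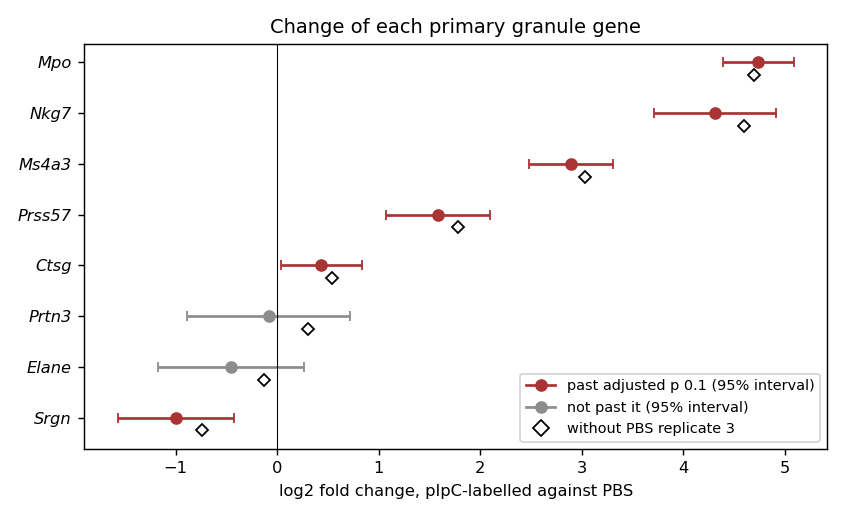
Log2 fold change of each primary granule gene (horizontal axis, libraries labelled pIpC against PBS) with its 95% interval from limma, in red where the adjusted p was under 0.1 and in grey otherwise, and as open diamonds the value without PBS replicate 3. The changes run from 4.74 for Mpo to -0.997 for Srgn, and without PBS replicate 3 the Prtn3 value moves from -0.08 to 0.30.

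Nkg7 and several basophil genes are also markers of other cells, and those markers moved as well. Of 13 cytotoxic T and NK cell markers, 8 could be tested, of which 7 were higher and none lower, and their summed normalized count was 78.1 to 96.0 in PBS libraries and 433 to 461 in those labelled pIpC, below the level of Nkg7 alone in each of the 6 libraries. Prf1, the perforin gene, was at 0 in all PBS libraries and averaged 11.3 in those labelled pIpC. Of 10 basophil and mast cell markers, 8 could be tested, of which 5 were higher and 1 lower, with sums of 4446 to 6809 and 10973 to 13109. The shares higher and lower over all genes tested were 25.0% and 20.4%. Fcer1a, Tpsb2 and Cma1 were at 0 in all PBS libraries, and Tpsb2 at 0 in all those labelled pIpC. The part of either cell type in the granule gene values was not tested.

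Per kilobase of exonic sequence, the order of the 8 genes differed between groups. In PBS libraries the mean normalized count per kb was 74337 for Elane, 22258 for Prtn3, 15536 for Srgn, 14459 for Ctsg, 1493 for Mpo, 909 for Ms4a3, 295 for Prss57 and 230 for Nkg7. In that order the ranges of Prtn3 and Srgn, of Srgn and Ctsg, and of Prss57 and Nkg7 overlapped, and the other neighbours were apart. In the libraries labelled pIpC the order was Elane at 51473 normalized counts per kb, Mpo at 39932, Ctsg at 19506, Prtn3 at 19443, Srgn at 7543, Ms4a3 at 6700, Nkg7 at 4401 and Prss57 at 862. There the ranges of Ctsg and Prtn3 and of Srgn and Ms4a3 overlapped. Mpo thus moved from the fifth place to the one next to Elane.

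The share of Mpo among the primary granule transcripts differed most between groups. The 8 genes together took 0.650%, 0.709% and 1.01% of all reads in PBS replicates 1, 2 and 3, against 1.26%, 1.16% and 1.20% in those labelled pIpC. Mpo was 4.11%, 3.90% and 1.98% of the reads of the 8 genes in PBS libraries and 49.2%, 48.8% and 50.1% in those labelled pIpC. Elane, Prtn3 and Ctsg together took 0.474%, 0.520% and 0.777% of all reads in PBS libraries and 0.474%, 0.445% and 0.446% in those labelled pIpC, so that the added reads came mostly from Mpo.

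Ratios within a library do not depend on how the libraries were scaled, and gene length cancels when they are compared between groups. The ratio of Mpo to Elane counts was 0.0999, 0.0908 and 0.0441 in PBS replicates 1, 2 and 3, against 2.79, 2.68 and 2.63 in those labelled pIpC, a log2 change of 5.19. The ratio of Elane to Prtn3 was 2.02, 2.05 and 1.77 in PBS libraries and 1.44, 1.43 and 1.65 in those labelled pIpC, a log2 change of -0.37. These log2 changes were 4.82 and -0.43 without PBS replicate 3. The ratio of Elane to Prtn3 was thus lower in every library labelled pIpC, by a smaller amount than the ratio of Mpo to either rose.

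The ratio of Mpo to Srgn changed most, by 5.74 on the log2 scale, from 0.193, 0.188 and 0.102 to 8.15, 8.12 and 8.50. Mpo to Nkg7 was 31.9, 32.3 and 15.9 in PBS libraries and 33.4, 35.0 and 33.7 in those labelled pIpC, so that this ratio was nearly the same in all libraries but PBS replicate 3. Its log2 change was 0.42, and 0.08 without that library, the smallest of the 28 pairs in that case, whereas with all libraries the smallest was that of Elane to Prtn3. Elane to Srgn was 1.93, 2.07 and 2.31 against 2.92, 3.03 and 3.24. All 28 pairs of the 8 genes had ratios that did not overlap between groups. Each had an exact two-sided permutation p of 0.1, the smallest that this design allows. None can therefore pass 0.05, whether or not the 28 are adjusted for. The 28 pairs share the same 8 genes and are not separate results. How often other gene pairs do not overlap was not computed, and 56.8% of single genes tested did not overlap.

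**Figure D3:**
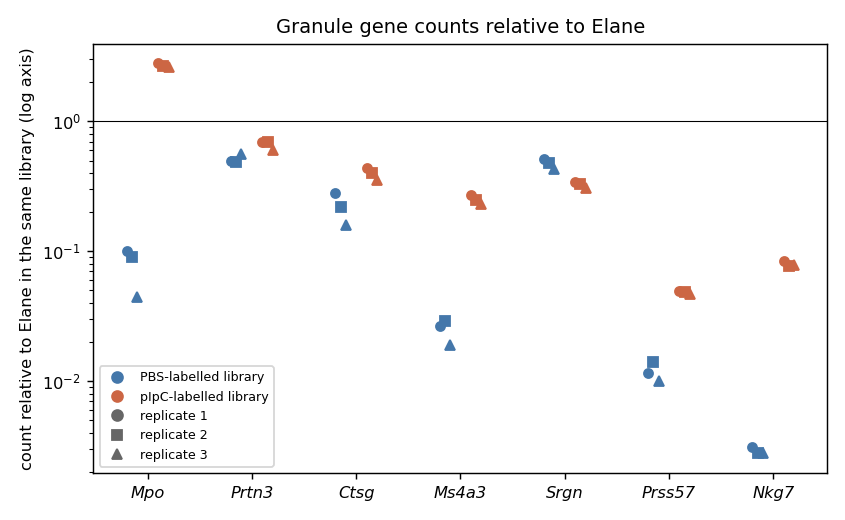
Normalized count of each of the other 7 primary granule genes divided by that of Elane in the same library (vertical axis, log scale), for PBS libraries (blue) and libraries labelled pIpC (orange), with marker shape giving the replicate. Mpo lies below 0.1 in each PBS library and above 2.6 in each library labelled pIpC, whereas Srgn is lower relative to Elane in the libraries labelled pIpC.

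Genes that process and restrain the serine proteases were mostly higher. Of 12 such genes 9 could be tested, and 8 were higher and 1 lower, with a median log2 fold change of 2.91. Over all genes tested, 25.0% were higher and 20.4% lower. Ctsc, which encodes the activating enzyme cathepsin C, had 152, 124 and 191 normalized counts in PBS libraries and a mean of 1191 ± 288 (SD, n = 3) in those labelled pIpC (log2 2.92, limma adjusted p = 0.000161). Cst7, which encodes cystatin F, an inhibitor of cathepsin C, rose alongside from 274 ± 109 to 2082 ± 206 normalized counts (log2 2.99, limma adjusted p = 0.000281).

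The intracellular serpins rose by differing amounts. Serpinb1a, whose product inhibits elastase, proteinase 3 and cathepsin G, was the most abundant at 13530 ± 4164 and 19752 ± 571 normalized counts (log2 0.59, limma adjusted p = 0.0824). Serpinb6a rose by 1.16, Serpinb9 by 0.83, Serpina3g by 3.71 and Serpina3f by 2.91 on the log2 scale, and Serpinb6b went from 0, 2.0 and 0 normalized counts to a mean of 42.8, although reads of these closely related serpins may be assigned to one another. Slpi, which encodes a secreted inhibitor of elastase and cathepsin G, was the exception. It had 19370, 21354 and 53726 normalized counts in PBS libraries, with PBS replicate 3 again the highest, and 2397 ± 120 in those labelled pIpC (log2 -3.55, limma adjusted p = 0.000515). Serpinb8, Serpinb2 and Serpina3n were too low to test.

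Genes listed with the later granules were nearly all higher. Of the 17 genes on this specific and gelatinase granule list, 16 were higher and none lower, against 25.0% and 20.4% of all genes tested. Their median log2 fold change was 6.30, against 1.01 for the primary granule genes. Not all encode granule contents, since the list also holds S100a8, S100a9, Padi4 and Cxcr2. Ltf (lactoferrin) went from 1889 ± 899 to 322925 ± 13632 normalized counts, and Ly6g, the surface marker of mouse neutrophils, from 19.4 ± 14.6 to 4315 ± 234, the largest log2 fold change of the list at 8.23. Chil3, which encodes a chitinase-like protein, was the lowest at 0.41 and did not pass (limma adjusted p = 0.198). It was already at 128129 ± 15004 normalized counts in PBS libraries, and under quantile normalization its value was -0.59 and past the threshold. The 17 genes summed to 135411 to 186695 normalized counts in PBS libraries and 2303159 to 2377764 in those labelled pIpC. S100a8 averaged 5705 and 300156 of these, and S100a9 7179 and 524961.

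Other azurophil and lysosomal contents were divided. Of 16 genes, 3 were higher and 6 lower, with a median log2 fold change of -0.29. Over all genes tested, 25.0% were higher and 20.4% lower. Lyz2, the myeloid lysozyme gene, rose from 9453 ± 3765 to 148067 ± 2008 normalized counts, and its paralog Lyz1 from 8.25 to 175 (log2 4.39), although reads of these near-identical genes may be assigned to either. Bpi, which encodes an antibacterial protein of azurophil granules, fell by 4.17 on the log2 scale, from 64.5 ± 18.7 to 2.64 ± 1.07 normalized counts. The lysosomal genes Man2b1, Lamp1, Cd68 and Gaa were lower by 0.38 to 1.18.

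Chain synthesis and heme supply showed no common direction, whereas most sorting genes lay above 0. Of 13 granule sorting and secretion genes, 11 lay above 0 and 2 below (median 0.35). Past the threshold, 5 were higher and 2 lower, against 25.0% and 20.4% of all genes tested. They ran from Lyst, the gene mutated in Chediak-Higashi syndrome, at 1.70 to Ap3s1, an adaptor subunit, at -0.79. Cd63, which encodes a granule membrane protein that binds elastase, did not pass (log2 0.07, limma adjusted p = 0.890), with 5428, 5709 and 13600 normalized counts in PBS libraries and again the highest value in PBS replicate 3. Of 13 enzymes that build the chondroitin sulfate chains of serglycin, 4 were higher and 4 lower (median 0.05). Csgalnact1 was the highest, at 5.2, 1.0 and 0 normalized counts in PBS libraries and a mean of 77.2 in those labelled pIpC, and Chpf the lowest at -1.20. Of 12 genes for the folding and heme supply of myeloperoxidase, 1 was higher (Cpox, 0.86) and 3 were lower (median -0.01). Alas1, the rate-limiting enzyme of heme synthesis in most cells, fell by 0.98, and Calr, a chaperone of newly made myeloperoxidase, by 0.88 on the log2 scale while Mpo rose. The third was Fech, at -0.47.

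Transcription factors known to act on granule genes changed less than Mpo. Of 10, 3 were higher and 2 lower, against 25.0% and 20.4% of all genes tested, with a median log2 fold change of -0.06. Cebpe, required for specific granules, had 2677, 3464 and 7483 normalized counts in PBS libraries and 8183 ± 466 in those labelled pIpC (log2 0.99, limma adjusted p = 0.0723). Cebpa was higher by 0.53 (limma adjusted p = 0.0428) and Irf8, a monocyte lineage factor, by 0.31 (limma adjusted p = 0.0870). Myb, whose motif letters lie before Elane and Prtn3 in the windows printed above, fell by 1.24 on the log2 scale from 20941 ± 2332 to 8824 ± 306 normalized counts (limma adjusted p = 0.000705), and Gfi1 fell by 0.48 (limma adjusted p = 0.0196). The values of the other 5 were -0.54 for Cebpb, -0.24 for Runx1, -0.09 for Spi1 (PU.1), 0.11 for Cbfb and -0.03 for Cux1, and none of these passed. Without PBS replicate 3 the Spi1 value was 0.17 and past the threshold. Of the 10, 4 were then higher and 5 lower, while 65.1% of all genes tested were called.

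**Figure D4:**
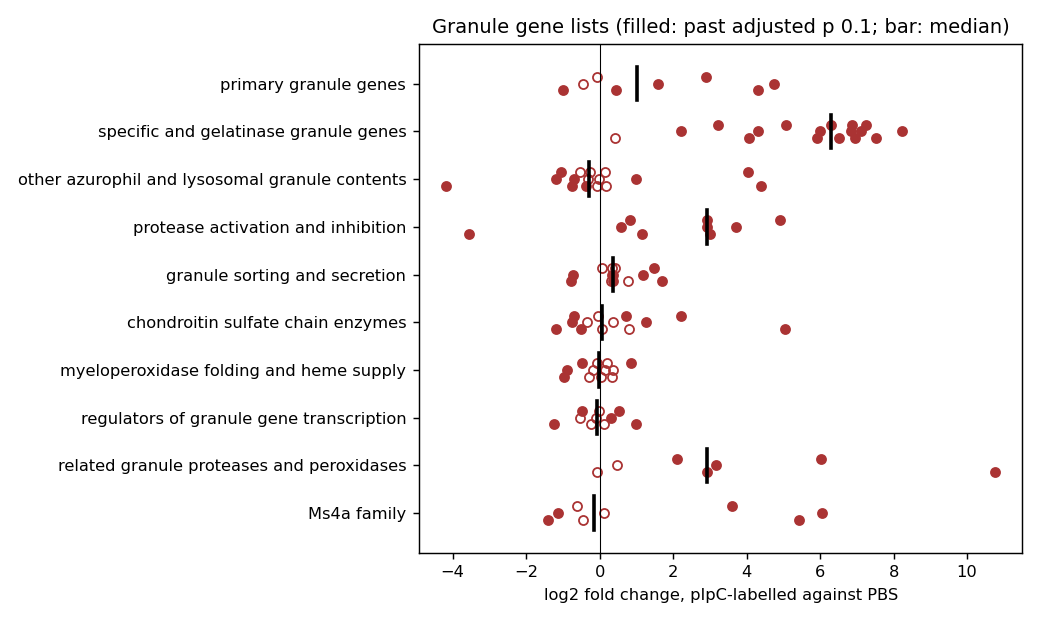
Log2 fold change (horizontal axis, libraries labelled pIpC against PBS) of every tested gene of 10 lists (vertical axis), filled where the adjusted p was under 0.1, with the median of each list as a black bar. The specific and gelatinase granule genes center on 6.30 and the primary granule genes on 1.01, and the values of Prss34, Ms4a1 and Serpinb6b depend on the pseudocount because they had at most 3 reads over the PBS libraries.

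Without PBS replicate 3, more genes were called in most lists. The same held over all genes tested, of which 65.1% were called without it and 45.3% with it. Higher and lower calls were then 8 and 1 for protease activation and inhibition, 8 and 2 for sorting, 8 and 5 for chondroitin sulfate enzymes, 6 and 4 for myeloperoxidase folding and heme supply, 5 and 8 for other azurophil and lysosomal contents, and 17 and 0 for specific and gelatinase granule genes. For the heme and folding genes the median log2 fold change moved from -0.01 to 0.22, so that its sign depended on this library.

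Relatives of the primary granule enzymes made by other granulocytes were low or rose. Of 17 related proteases and peroxidases, 7 could be tested, of which 5 were higher and none lower, with a median of 2.91. Prss34, a basophil protease gene, had 0, 1.0 and 0 normalized counts in PBS libraries and 2213 ± 418 in those labelled pIpC. Cfd was the lowest of the list at -0.07, and Gzmc, Gzmk, Mcpt1, Mcpt4, Tpsb2 and Tpsab1 were at 0 in all 6 libraries. Of 13 other Ms4a family genes 8 could be tested, and 3 were higher and 2 lower, against 25.0% and 20.4% of all genes tested. Their median was -0.17, so that the rise of Ms4a3 was not shared by the whole family. Ms4a1, a B cell gene, was at 0 in all PBS libraries and at 66.5 ± 15.2 in those labelled pIpC, and Ms4a4c was the lowest of the family at -1.41.

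Genes lying close to the primary granule genes moved in both directions, at about the rate of all genes. Within 100 kb of the 8 genes lie 62 other protein-coding genes, of which 39 could be tested, and 10 were higher (25.6%, against 25.0% of all genes tested), 9 lower (23.1%, against 20.4%) and 20 not called. Without PBS replicate 3, 13 were higher, 15 lower and 11 not called, or 71.8% called against 65.1% of all genes tested. Next to Mpo, the peroxidase genes Lpo, 2.015 kb away, and Epx, 59.587 kb away, were higher. Lpo had 9.5, 0 and 0 normalized counts in PBS libraries and a mean of 141 in those labelled pIpC, and Epx rose from 141 ± 69.6 to 561 ± 3.09 (log2 2.10). Rnf43 and Mks1 near Mpo were lower, at -3.05 and -0.74, and Supt4a and Tspoap1 did not pass. Both did without PBS replicate 3, with Supt4a turning from -0.12 to 0.30 and Tspoap1 at -0.87.

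Elane, Prtn3 and Prss57 lie in one stretch of chromosome 10. Prss57 is 83.515 kb from Prtn3 and 95.286 kb from Elane, and rose where they did not pass the test. Beyond Elane, R3hdm4, Kiss1r and Arid3a were higher, at 1.71, 1.48 and 0.76 on the log2 scale. Plppr3, which lies on the other side and overlaps Prtn3, was lower at -0.56. Between or beside them Palm, Ptbp1, Cfd, Med16, Wdr18, Tmem259 and Fstl3 did not pass, and on the far side of Prss57 Polrmt and Rnf126 were lower, at -0.51 and -0.81, and Cdc34, Gzmm and Bsg did not pass. Ptbp1 turned from 0.08 to -0.36 and passed without PBS replicate 3, as did Wdr18 at 0.37, Cdc34 at 0.84 and Bsg at -0.34.

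Around the other genes the pattern was again mixed. Ctsg lies in a cluster of mast cell protease and granzyme genes of which only Mcpt8, a basophil protease gene 14.608 kb away, could be tested, and it rose from 158 ± 38.7 to 1434 ± 420 normalized counts. Next to Ms4a3, Ms4a2, the high-affinity IgE receptor beta chain gene, 5.777 kb away, rose from 15.7 ± 6.23 to 676 ± 27.8 normalized counts and Oosp1 went from a mean of 0.626 to 62.8, whereas Ms4a6d and Ms4a6b did not pass. Around Nkg7, Cldnd2 and Siglecg were higher at 2.45 and 1.59, Siglecf, Cd33 and Vsig10l lower at -3.11, -1.23 and -0.52, and Etfb and Iglon5 not called. Around Srgn only Ddx21 was called, at -0.57, and Supv3l1, Vps26a, Kif1bp and Ddx50 were not. Kif1bp at -0.25, Ddx50 at -0.21 and, near Ms4a3, Ms4a6b at -0.40 passed without PBS replicate 3.

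**Figure D5:**
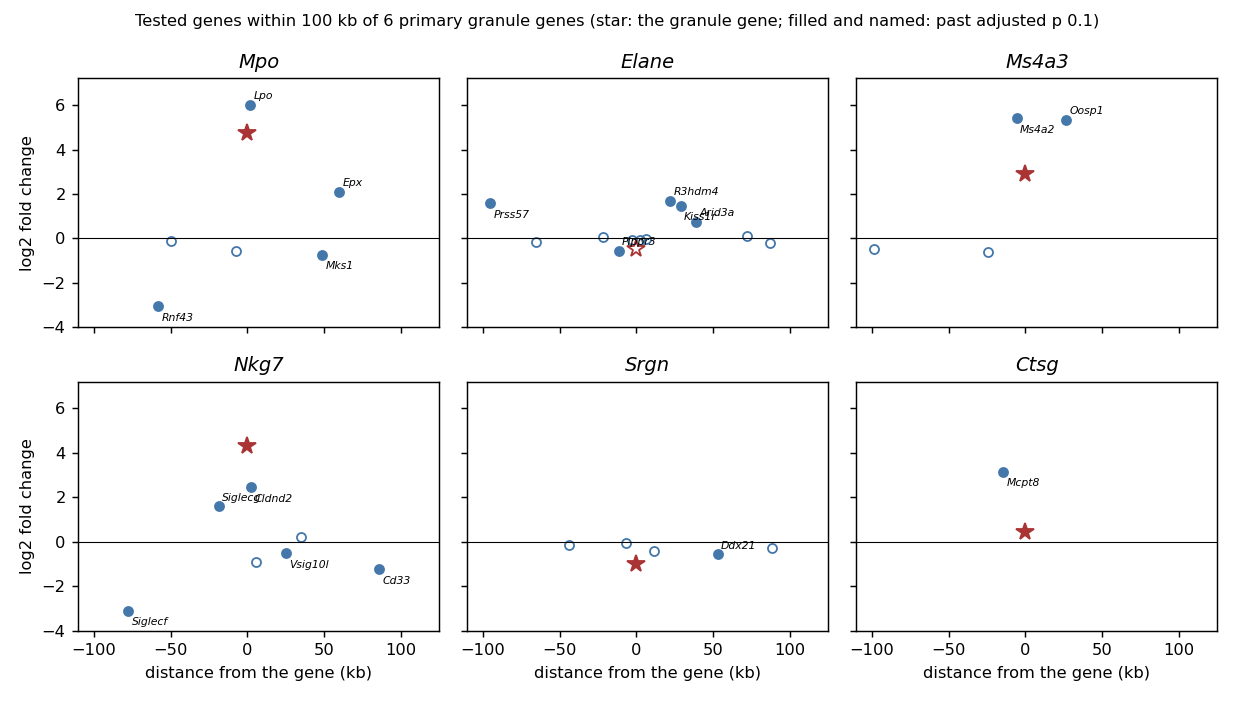
Log2 fold change (vertical axis) of tested protein-coding genes within 100 kb of 6 primary granule genes against their distance in kb (horizontal axis, negative towards lower coordinates), with the granule gene as a star at 0 and symbols filled and neighbours named where the adjusted p was under 0.1. Lpo next to Mpo and Ms4a2 next to Ms4a3 were higher with their neighbour, and Rnf43 near Mpo and Siglecf near Nkg7 were lower.

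For each gene the most alike profiles across the 6 libraries were found by the root mean square distance between centred log2 values, among genes averaging at least 100 normalized counts. For Mpo these were Plau, the urokinase gene, at a distance of 0.106 and Cd101 at 0.138, with Plau at 38.9, 47.6 and 38.5 normalized counts in PBS libraries and 1018, 1079 and 1087 in those labelled pIpC. For Nkg7 they were the later granule gene Fcnb (0.148) and Lyz2 (0.149), for Ms4a3 Tuba8 (0.0414) and Ffar2 (0.0968), and for Prss57 Fabp5 (0.0853) and Nanos1 (0.115). For Elane they were Mrpl15 (0.0391) and Bad (0.0399), for Prtn3 Itgb1bp1 (0.0312) and Trappc1 (0.0360), for Srgn Dtymk (0.0506) and Mri1 (0.0512), and for Ctsg AW209491 (0.0442) and Atn1 (0.0486). The 8 genes themselves were left out of this search.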

How the data were processed

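RNA-seq of 6 samples was used, 3 per group. The authors deposited gene counts divided by one size factor per library, treated here as a signal. The study's methods name nf-core/rnaseq with STAR and RSEM on mm10, whereas the submitters' processing notes name HISAT2 2.2.1, SAMtools, featureCounts and edgeR on GRCm38. Every value was a whole multiple of 1 read (100% within 0.1), so reads were recovered. The size factor of pIpC replicate 1 is close to 1. Value columns not used numbered 0. Positions are from GENCODE on GRCm38.

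limma 3.58.1 (R 4.3.3) with an intensity trend was fitted on log2(normalized count + 1) for 15020 genes averaging 10 or more, which understates changes of low genes, with Benjamini-Hochberg adjustment over all of them at 0.1 and no replicate block. On recovered reads edgeR 4.0.16 called 6901 genes and DESeq2 1.42.0 was an alternative, and limma called 6808. The other alternatives were pseudocounts of 0.1 and 10, no filter or a mean of 50, quantile normalization, median centring, each library left out, a replicate block, no intensity trend and an adjusted p under 0.05. Counts of lists and neighbours and ratios without PBS replicate 3 were added after seeing the data. The fit was tested on simulated data. Deviations of same-numbered libraries correlated at -0.117, 0.143 and 0.041, so numbers did not pair them.

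The genes and lists were chosen with earlier results of these data known. Named genes are the 8, the highest and lowest tested gene of each list, all tested genes of the protease and transcription factor lists, protein-coding genes within 100 kb, and the 2 most alike profiles. Others, such as Xist, were named after their values were seen. For genes with at most 3 reads over a group, levels are given in place of fold changes, and setting them at that floor moved no list median of a granule list. The values of some genes of the lists are not reported here.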

Additional observations from a re-analysis of the deposited data

How the results depend on the processing

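Of 136 values of the 8 genes under 17 alternatives, 123 kept their direction and side of the threshold. Mpo, Ms4a3, Nkg7, Prss57 and Srgn were called in all 17, with log2 ranges of 4.37 to 4.78, 2.75 to 3.03, 4.16 to 4.60, 1.36 to 1.78 and -1.15 to -0.74. Ctsg lost its call with no filter, the replicate block, no intensity trend and an adjusted p under 0.05 (0.44 in each; adjusted p = 0.186 with the block), in edgeR (0.42), and in 5 of 6 leave-one-out fits (range of all 6, 0.35 to 0.54, whose upper end, without PBS replicate 3, kept the call). Elane passed under quantile normalization (-0.78). Prtn3 reversed there (0.14) and without PBS replicate 3 (leave-one-out range -0.32 to 0.30). The replicate block changed no other call of the 8, and same-numbered libraries were not shown to be paired. Quantile normalization moved the median of all genes to -0.12, with 3244 genes higher and 4078 lower (44.3% of calls higher) against 3750 and 3058 (55.1%), and 6808 calls became 4650 to 9783 in leave-one-out fits. Among 104 other named genes, 1622 of 1755 values kept direction and side, and these reversed: Cbfb (-0.0076), Gzmm (-0.0032), Iglon5 (-0.75) and Chil3 (-0.59) under quantile normalization, Cux1 (0.0019) on median centring, Ptbp1 in edgeR (-0.055) and DESeq2 (-0.043), and, by leave-one-out range, Spi1 (-0.24 to 0.17), Cux1 (-0.21 to 0.069), Supt4a (-0.35 to 0.30), Ptbp1 (-0.36 to 0.32), Cfd (-0.49 to 0.31), Med16 (-0.087 to 0.058), Wdr18 (-0.10 to 0.37), Tmem259 (-0.35 to 0.078), Vps26a (-0.11 to 0.018), Itgb1bp1 (-0.36 to 0.25) and Trappc1 (-0.28 to 0.35). The causes were not tested.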
